A study of Mus musculus with 2 samples.

Results

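The genes described here are 36 members of the integrated stress response and the unfolded protein response of the endoplasmic reticulum, of 32285 genes counted. They were chosen by symbol, with earlier results of these data known. Of these, 18 are Atf4, its targets and partners, called the integrated stress arm below. The other 18 are chaperones, folding enzymes, degradation factors and regulators of the endoplasmic reticulum. All 36 were found among the counted genes. The cells came from mammary tumors of 2 mice carrying Krt8-CreERT, Rosa26-mTmG and MMTV-PyMT, 1 library for each mouse and the same treatment in both. Tamoxifen at 150 mg/kg, given on 6 days in all when the mice were 5 and 6 weeks old, switched on GFP in cells in which the Krt8 promoter drove Cre, tumors were taken at 1.5 cm3 and dissociated with collagenase and hyaluronidase, and live GFP+ cells without CD31 and CD45 were sorted and counted with 10x 3′ chemistry. With 1 condition, the groups compared are groups of cells inside the same mice: lumino-basal cluster 6, mature luminal cluster 13, all other annotated tumor cells, and barcodes without annotation, set against all annotated cells. The model limits what these groups can show, because a GFP+ cell had Krt8 promoter activity at the time of tamoxifen whatever its state at harvest, both mice bore the same oncogene, and no untreated or undissociated sample was analysed here.

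Cells that are short of amino acids, or whose endoplasmic reticulum is loaded with unfolded protein, phosphorylate the translation factor eIF2alpha through the kinases PERK (Eif2ak3), GCN2 (Eif2ak4), PKR (Eif2ak2) and HRI (Eif2ak1). Most translation then slows while that of the transcription factor Atf4 rises, and ATF4 protein with C/EBP partners switches on genes of amino acid import, amino acid synthesis, redox balance and, through Ddit3 (CHOP), cell death. In parallel, the sensor ATF6, and the sensor IRE1 through splicing of Xbp1, switch on chaperones and degradation factors of the endoplasmic reticulum. Secretory epithelium such as the mammary gland keeps a high base level of these chaperones. Counts of transcript 3′ ends see neither eIF2alpha phosphorylation nor Atf4 translation nor Xbp1 splicing, so the values below are transcript levels only.

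The 2 libraries held 6175 and 7538 barcodes with 63140346 and 61529883 unique molecules (UMIs) in mouse 1 and mouse 2. The deposited annotation placed 3829 and 5330 cells of these in 18 clusters, numbered 0 to 17, with a median of 15014 and 9470 UMIs a cell. A further 2311 and 1948 barcodes without annotation had a mitochondrial share above that of every annotated cell of their mouse, and 35 and 260 barcodes were left out for other reasons. The libraries shared 20 barcode sequences, 9 of them among annotated cells. Keratins and other pan-luminal genes summed to 19295 and 22527 CPM (UMIs of a gene for every 1000000 UMIs) in the annotated cells, while those of cluster 6 summed to 9091 and 7996 CPM and its basal genes to 4615 and 4510 CPM. Cluster 6 also held fibroblast transcripts, at 1489 and 2966 CPM over 7 genes, all 7 with UMIs, against 2.83 and 4.06 CPM in the tumor cells outside clusters 6 and 13. Cell numbers were 260 and 167 in cluster 6 and 73 and 192 in cluster 13, in mouse 1 and mouse 2.

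The promoters of 5 members are printed because the results turn on them: Nupr1, which makes up most of the integrated stress sum in cluster 13, Asns and Vldlr, which went opposite ways between clusters 6 and 13, Herpud1, which carries letters of both arms, and Hspa5, the highest chaperone. Each run covers 250 bases before and 50 after the start in RefSeq for GRCm38.p6, read 5′ to 3′ on the gene's strand, and capitals mark a motif. The motifs searched, on both strands, were the ATF4 composite element TGATGNAA and the elements of the endoplasmic reticulum response, ERSE (CCAAT and CCACG with any 9 bases between them), ERSE-II (ATTGG and CCACG with any 1 base between them) and UPRE (TGACGTGG). A motif on the opposite strand appears as its reverse complement. The runs lie at chr7:126625421-126625720 (Nupr1, minus strand), chr6:7693160-7693459 (Asns, minus strand), chr19:27216770-27217069 (Vldlr, plus strand), chr8:94386179-94386478 (Herpud1, plus strand) and chr2:34771840-34772139 (Hspa5, plus strand).
Nupr1: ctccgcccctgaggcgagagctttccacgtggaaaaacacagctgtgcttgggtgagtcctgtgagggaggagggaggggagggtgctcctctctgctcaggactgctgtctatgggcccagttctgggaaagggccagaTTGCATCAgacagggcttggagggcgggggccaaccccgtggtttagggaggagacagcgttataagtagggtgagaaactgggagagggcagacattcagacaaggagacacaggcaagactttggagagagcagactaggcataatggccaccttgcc
Asns: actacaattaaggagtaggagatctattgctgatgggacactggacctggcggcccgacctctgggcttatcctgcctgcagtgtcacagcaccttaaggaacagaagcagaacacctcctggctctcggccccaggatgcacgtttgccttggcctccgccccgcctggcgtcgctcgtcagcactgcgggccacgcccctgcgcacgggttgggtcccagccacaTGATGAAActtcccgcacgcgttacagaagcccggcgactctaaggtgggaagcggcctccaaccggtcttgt
Vldlr: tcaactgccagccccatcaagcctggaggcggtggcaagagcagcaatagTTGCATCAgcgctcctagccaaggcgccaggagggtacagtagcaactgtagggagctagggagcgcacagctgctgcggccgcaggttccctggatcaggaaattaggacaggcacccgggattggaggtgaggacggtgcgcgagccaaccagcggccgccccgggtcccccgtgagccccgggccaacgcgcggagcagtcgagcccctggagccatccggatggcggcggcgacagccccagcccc
Herpud1: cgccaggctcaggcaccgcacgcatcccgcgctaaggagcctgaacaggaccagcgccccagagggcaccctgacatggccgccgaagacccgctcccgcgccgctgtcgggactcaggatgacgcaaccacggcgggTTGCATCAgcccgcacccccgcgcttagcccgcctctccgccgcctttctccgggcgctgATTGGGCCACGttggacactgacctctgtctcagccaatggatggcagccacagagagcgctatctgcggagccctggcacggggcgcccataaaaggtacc
Hspa5: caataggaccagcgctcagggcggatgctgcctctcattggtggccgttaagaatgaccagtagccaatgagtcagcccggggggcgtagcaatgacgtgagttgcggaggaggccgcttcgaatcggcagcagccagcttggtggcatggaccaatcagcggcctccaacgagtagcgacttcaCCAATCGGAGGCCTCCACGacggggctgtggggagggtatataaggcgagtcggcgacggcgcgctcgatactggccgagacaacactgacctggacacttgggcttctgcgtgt
A promoter was found for 17 genes of the integrated stress arm and 15 of the endoplasmic reticulum arm. The 17 genes had 20 promoters, and a gene was counted if any of its promoters held the letters. Vldlr has another start, with a run at chr19:27216234-27216533 that held no motif and is not printed. The letters of the composite element stood in 6 of the 17 integrated stress genes (Asns, Chac1, Nupr1, Slc7a11, Trib3 and Vldlr) and in 1 of the 15 of the other arm (Herpud1), against 3.97% of 32851 promoters of the same length. ERSE stood in 7 of the 15 endoplasmic reticulum genes (Calr, Creld2, Dnajc3, Hsp90b1, Hspa5, Pdia6 and Syvn1) and in none of the 17, against 0.119% of all promoters. ERSE-II was found in Herpud1 only, against 0.0365% of all promoters, and UPRE in no member, against 0.676%. Such matches describe letters and do not show binding.

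Over all annotated cells the endoplasmic reticulum arm summed to 3221 and 2694 CPM and the integrated stress arm to 1765 and 2162 CPM, in mouse 1 and mouse 2. These are UMIs of transcript 3′ ends in CPM, which are not divided by transcript length. Hspa5, the chaperone BiP that also holds the stress sensors inactive, led the endoplasmic reticulum arm at 647 and 480 CPM. It was followed by the calcium-binding lectin chaperone Calr at 525 and 440 CPM, the chaperone Hsp90b1 (GRP94) at 396 and 353 CPM and the disulfide isomerase Pdia3 at 354 and 345 CPM. The integrated stress arm was led by Cebpb, a dimer partner of ATF4, at 584 and 803 CPM, and by Nupr1, a small stress-induced chromatin protein, at 386 and 504 CPM. Slc3a2, the heavy chain of several amino acid transporters, had 184 and 346 CPM, and Atf4 itself had 228 and 192 CPM. At the other end, Slc7a11, the cystine transporter, was counted in 75 and 28 UMIs and the glutathione-degrading enzyme Chac1 in 157 and 41 UMIs of all annotated cells, so that neither can be compared between clusters at this depth.

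The integrated stress arm varied more between clusters than the endoplasmic reticulum arm. Its sum ran from 1121 CPM in cluster 4 to 3746 CPM in cluster 13 of mouse 1, and from 1040 CPM in cluster 3 to 4094 CPM in cluster 2 of mouse 2. In mouse 2 cluster 13 was next at 4070 CPM, and the exact 95% Poisson intervals of clusters 2 and 13 overlapped. Both mice had clusters 2, 9 and 13 as their 3 highest and clusters 3 and 4 among their 3 lowest. The endoplasmic reticulum sum stayed between 1887 CPM in cluster 1 and 3577 CPM in cluster 12 of mouse 1, and between 1707 CPM in cluster 14 and 3623 CPM in cluster 11 of mouse 2. Over the 18 clusters the mice ranked the integrated stress sum with a Spearman rho of 0.91 and the endoplasmic reticulum sum with a rho of 0.43, as a description over clusters that were drawn from these same expression values.

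**Figure D1:**
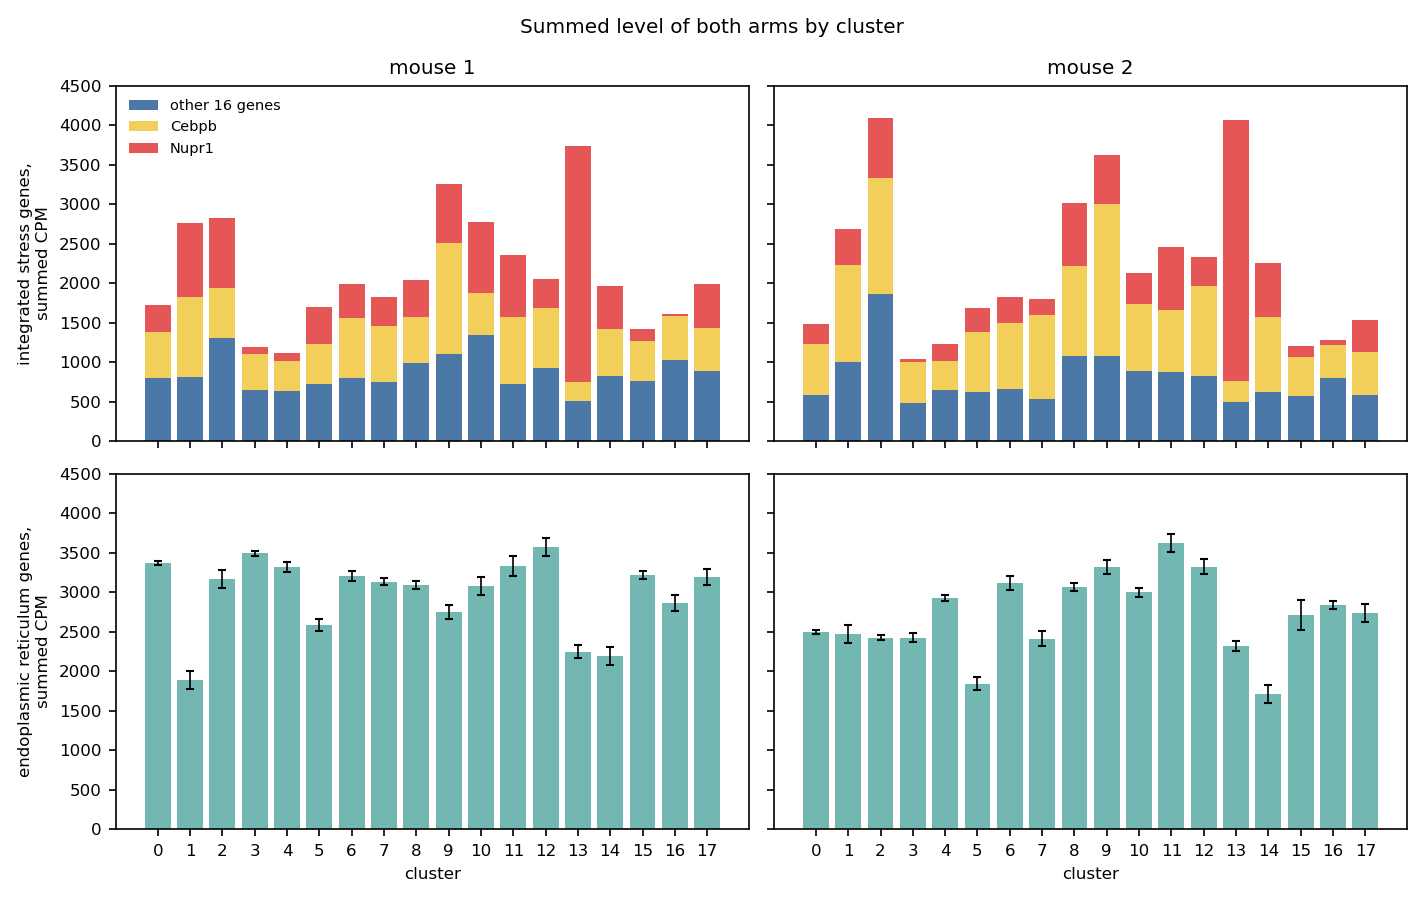
Summed CPM (y axes) of the integrated stress arm, stacked as Nupr1, Cebpb and the other 16 genes, and of the endoplasmic reticulum arm, in each cluster (x axes) of mouse 1 and mouse 2. Exact 95% Poisson intervals are drawn for the endoplasmic reticulum arm only. Nupr1 fills most of the bar of cluster 13 and Cebpb is largest in cluster 9, while the endoplasmic reticulum sums lie within 1887 to 3577 CPM in mouse 1 and 1707 to 3623 CPM in mouse 2.

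Different genes carried the high integrated stress sums. In cluster 13, Nupr1 had 2994 and 3306 CPM and made up 79.9% and 81.2% of the arm, while in no other cluster did it exceed 33.7% in mouse 1 and 32.5% in mouse 2. The next clusters for Nupr1 were cluster 1 in mouse 1, with 931 CPM, and clusters 8 and 11 in mouse 2, each with 801 CPM. With Nupr1 left out, a choice made after its values were seen, cluster 13 had the lowest sum of the 18 clusters in both mice, at 752 and 764 CPM. Cluster 13 also had the lowest Cebpb level of all clusters, 248 and 263 CPM, the lowest Slc7a5, 4.92 and 4.96 CPM, and the lowest Vldlr, 3.28 and 4.55 CPM. Cluster 13 was thus at the top for 1 gene of the arm and at the bottom for these 3, of which Slc7a5 and Vldlr were chosen after their values were seen. Both lay near the floor in cluster 13, with a UMI of Slc7a5 in 6.85% and 6.25% of cells and of Vldlr in 5.48% and 4.17%.

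Cluster 2 was high in Slc3a2, and cluster 9 in Cebpb, Ddit3 and Herpud1; these genes, like the others described by cluster from here to the end of the paragraphs on clusters, were chosen after their values were seen unless they are among the highest of their arm. Slc3a2 had 546 and 1326 CPM in cluster 2, with 507 and 9956 UMIs, and the next cluster was cluster 12 in mouse 1 (313 CPM) and cluster 8 in mouse 2 (600 CPM). Its light chain partner Slc7a5, with which it forms the large neutral amino acid transporter, was low there, at 8.62 and 12.5 CPM, and was highest in cluster 1, at 39.7 and 115 CPM. Over the 18 clusters Slc3a2 and Slc7a5 had a rho of -0.17 and -0.42. The other light chain on the list, Slc7a11, gave 1 UMI in cluster 2 of each mouse, too few to place it. Cluster 2 held 47 cells in mouse 1 and 662 in mouse 2, so its mouse 1 values come from few cells. It had the highest macrophage sum of the 18 clusters, at 80.8 and 79.9 CPM against a median cluster of 19.7 and 13.3 CPM, and neutrophil genes summed to 151 and 546 CPM, first in mouse 1 and second to cluster 14 in mouse 2. The part of these transcripts in the Slc3a2 level was not tested.

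Cluster 9 was the highest for Cebpb, at 1408 and 1924 CPM, and for Herpud1, a degradation factor of the endoplasmic reticulum membrane, at 71.3 and 101 CPM. Ddit3, the pro-apoptotic factor CHOP, had 177 and 132 CPM in cluster 9 and 126 and 124 CPM in cluster 1. Cluster 10 was the highest for Ddit3 in mouse 1, at 191 CPM, but had 45.6 CPM in mouse 2, and cluster 2 had 100 and 77.5 CPM. It was low in cluster 3, at 25.2 and 5.36 CPM, in cluster 4, at 14.8 and 10.2 CPM, and in cluster 13, at 20.5 and 12.4 CPM. Sesn2, an ATF4 target that restrains mTORC1, was again high in cluster 9 (27.1 and 23.9 CPM) and in cluster 1 (25.3 and 52.2 CPM). Cluster 9 was also the cluster with the most immediate early and heat shock transcripts (Fos, Jun, Egr1, Hspa1a and others, 12 genes), at 27774 and 33153 CPM against a median of 2991 and 2853 CPM over the clusters, and the part of this in the member levels was not tested. The immediate early list was next highest in clusters 1 and 12, and over the 18 clusters it had a rho of 0.55 and 0.51 with the integrated stress sum. Atf3, an ATF4 target that is no member and that also responds to immediate early signals, had 2392 and 3183 CPM in cluster 9.

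**Figure D2:**
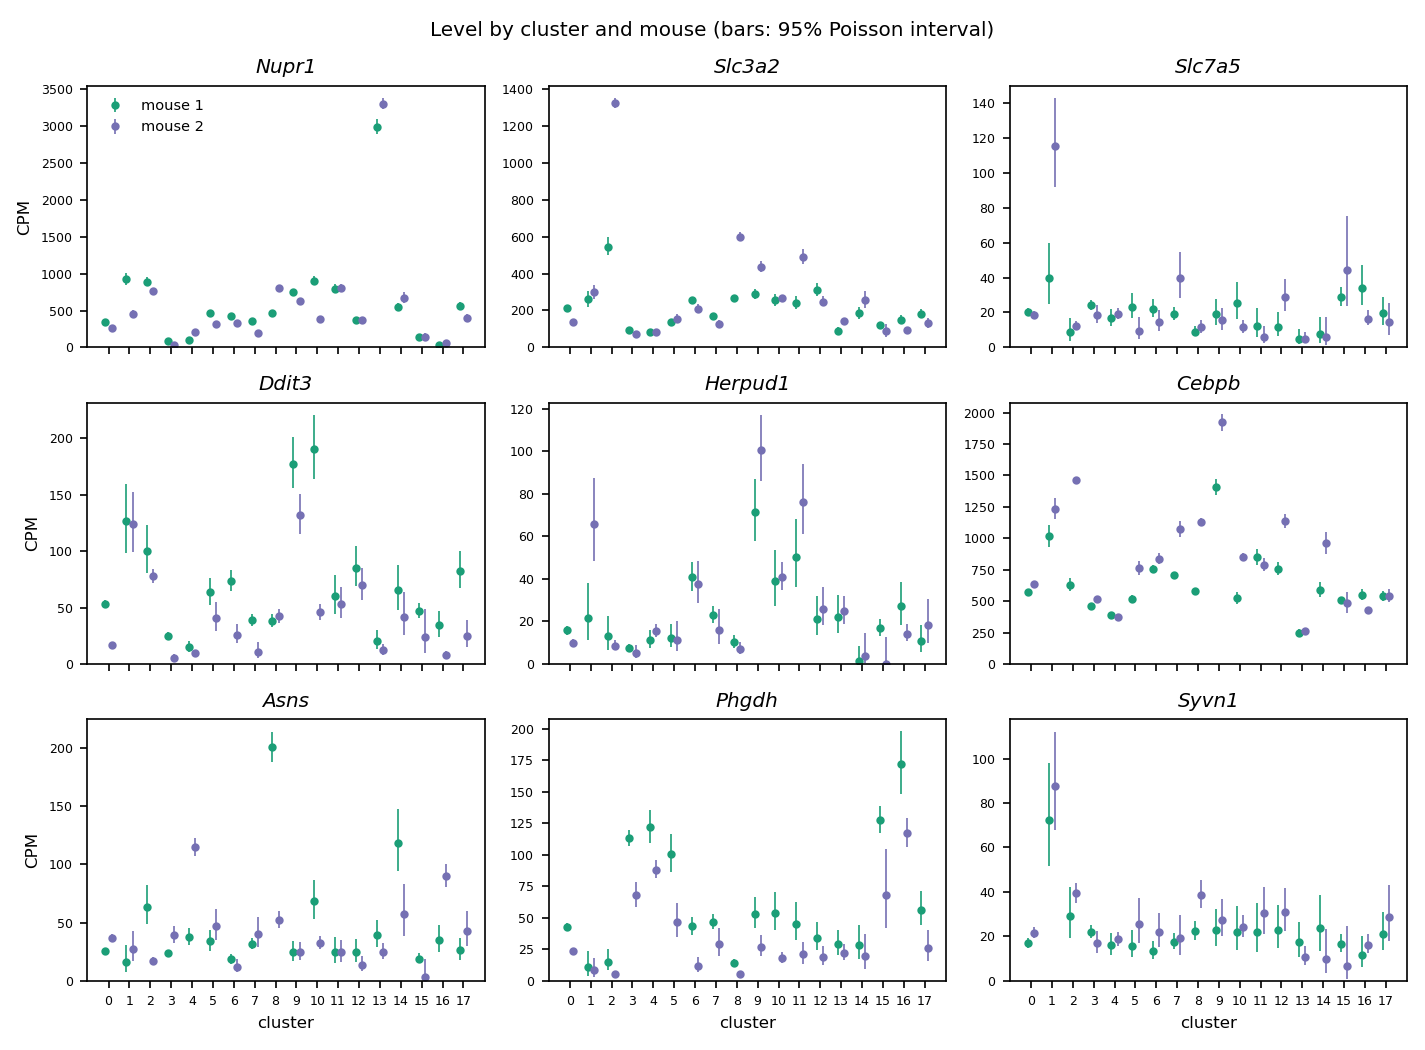
Level of 9 members in CPM (y axes, 95% Poisson intervals) by cluster (x axes), with a point for each mouse. Nupr1 stands out in cluster 13 of both mice (2994 and 3306 CPM), Slc3a2 in cluster 2 (546 and 1326 CPM), Cebpb and Herpud1 in cluster 9, Phgdh in cluster 16 (172 and 117 CPM) and Syvn1 in cluster 1, whereas Asns peaks in different clusters of the mice.

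The genes of serine synthesis and one-carbon metabolism were highest in cluster 16 of both mice. Cluster 16 held 34 cells in mouse 1 and 129 in mouse 2, so its mouse 1 values come from few cells. Phgdh, the first enzyme of serine synthesis, was highest in cluster 16 (172 and 117 CPM) and then in clusters 3, 4 and 15. It was lowest in clusters 1, 2 and 8. Cluster 15 held 191 cells in mouse 1 and 17 in mouse 2. Psat1, the second enzyme of serine synthesis, had 76.7 and 84.9 CPM in cluster 16, which was 6.93 and 6.02 times the median cluster. The mitochondrial one-carbon enzymes Mthfd2 (63.2 and 46.4 CPM) and Shmt2 (34.3 and 26.4 CPM) were also highest there. The stress gene Trib3 was highest in cluster 16 too, but in mouse 2 alone, at 23.4 CPM against 11.7 CPM in mouse 1. The 4 genes together summed to 346 and 275 CPM in cluster 16 and to 41.5 and 26.1 CPM in cluster 1. Cluster 16 was the cluster with the most division transcripts (Mki67, Top2a and others, 6 genes, 1600 and 1968 CPM) and the deepest, with a median of 33079 and 26972 UMIs a cell, against 15278 and 10761 UMIs for the median cluster. The part of division and depth in these levels was not tested. Phgdh and Slc3a2 ran opposite over the clusters, with a rho of -0.63 and -0.82.

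Asns, which makes asparagine and is a standard ATF4 target, did not keep its place between the mice. It was highest in cluster 8 of mouse 1, at 201 CPM, where mouse 2 had 52.5 CPM, and in cluster 4 of mouse 2, at 115 CPM, where mouse 1 had 37.8 CPM. The Poisson intervals were 188 to 214 CPM and 107 to 123 CPM at these 2 peaks, so counting error did not span the differences between the mice. Vldlr, a lipoprotein receptor and ATF4 target, was highest in cluster 8 of both, at 56.7 and 86.4 CPM. Atf4 transcript varied less between clusters than most of the arm, with an SD of log2 CPM of 0.44, although Atf5 (0.39) and Cebpg (0.35) varied less still. Its highest cluster, cluster 10 with 391 and 302 CPM, was 1.91 and 1.81 times the median cluster. Atf5 had a rho of -0.34 between the mice over 18 clusters, so its order of clusters differed from mouse to mouse. The rho was 0.07 for Trib3, -0.13 for Chac1 and -0.54 for Slc7a11. These genes had too few UMIs for their order of clusters to be read.

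In the endoplasmic reticulum arm, cluster 1 was the highest of the 18 for Syvn1 and the lowest for Manf, Pdia6 and Pdia3, in both mice. Syvn1 and Sel1l, the ubiquitin ligase HRD1 and its adaptor in degradation from the endoplasmic reticulum, had 72.2 and 87.9 CPM and 64.9 and 81.0 CPM there. Several folding factors were low in the same cluster, with 43.3 and 79.7 CPM of Manf, 54.1 and 81.0 CPM of Pdia6, 137 and 157 CPM of Pdia3 and 233 and 261 CPM of Calr. Other chaperones were not, since Hspa5 had 594 and 711 CPM, rank 12 and rank 4 of the 18, and Hyou1, a large chaperone that works with BiP, had 27.1 and 50.8 CPM, rank 6 and rank 1. Cluster 1 was the shallowest cluster, with a median of 1258 and 1009 UMIs a cell, and its nuclear RNA Malat1 reached 71950 and 70798 CPM, against a median cluster of 14144 and 21972 CPM. These values moved with the members, and their part in the result was not tested. Globin genes summed to 2763 CPM in cluster 1 of mouse 2, against 0 CPM in that of mouse 1 and 3.98 CPM in cluster 14, the next of mouse 2. The part of these transcripts in the cluster 1 levels of any member was not tested. Over all clusters Hspa5 lay between 432 and 867 CPM in mouse 1 and between 227 and 804 CPM in mouse 2, and the cochaperone and IRE1 inhibitor Dnajb9 (ERdj4) was highest in cluster 12 of mouse 1, at 175 CPM, and in cluster 9 of mouse 2, at 150 CPM.

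**Figure D3:**
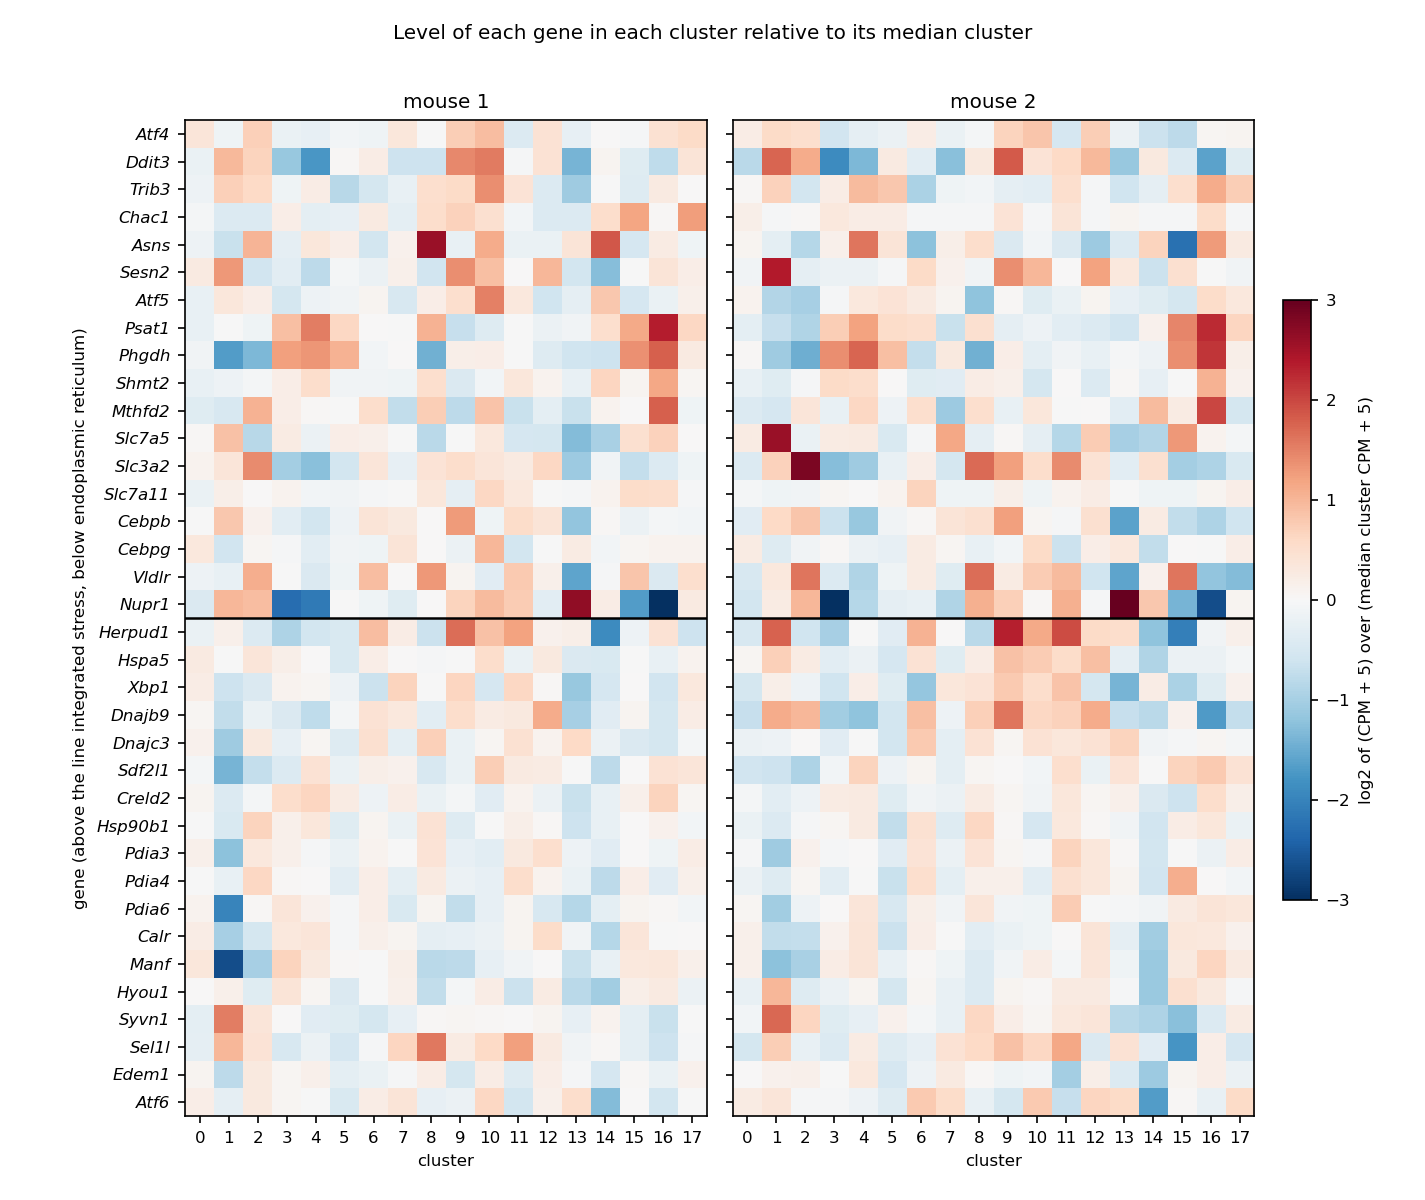
Level of each of the 36 members (vertical axis, by arm) in each cluster (horizontal axis) of mouse 1 and mouse 2, as the log2 ratio to the median cluster of the same mouse after adding 5 CPM to both. The integrated stress rows hold stronger colors than the endoplasmic reticulum rows, with Nupr1 in cluster 13, Slc3a2 in cluster 2 and Phgdh and Psat1 in cluster 16 alike in both mice.

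An edgeR quasi-likelihood F test over the 18 clusters, with a term for the mouse and p-values adjusted over 11603 genes by the Benjamini-Hochberg method, called 31 of the 35 members that passed the count filter. It called 81.0% of all genes tested, so the members' share lay near the background, and the clusters had been drawn from the same values. Chac1, Trib3, Atf5 and Creld2 were not called and Slc7a11 was not tested. The size of the variation separated the arms more than the call did. The SD of log2 CPM between clusters had a median of 0.89 over 17 integrated stress genes and of 0.45 over 18 endoplasmic reticulum genes, beside 0.61 over all genes. Nupr1 stood at percentile 92.0 of all genes by this SD, Herpud1 at 89.4, Sesn2 at 84.4, Phgdh at 82.4 and Ddit3 at 81.1, while Creld2 stood at 4.30 and Hsp90b1 at 4.63. Of the endoplasmic reticulum genes, 12 of 18 varied less than the median gene, and of the integrated stress genes, 4 of 17 did. The SD between mice within clusters was also larger in the integrated stress arm. Its median was 0.52, against 0.31 in the endoplasmic reticulum arm and 0.44 over all genes. Herpud1 had an SD of 1.37 between clusters and 1.07 between mice. The part of the spread between mice in the difference between the arms was not tested.

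The 36 members did not move as 1 block. Of 630 gene pairs, 5 had a rho of at least 0.7 over the 18 clusters in both mice, and each joined genes of the same arm: Pdia3 with Pdia4, Calr with Manf, Hsp90b1 with Pdia6, Slc3a2 with Cebpb and Ddit3 with Slc3a2. The median rho was 0.11 and -0.05 within the integrated stress arm, 0.17 and 0.23 within the endoplasmic reticulum arm, and 0.01 and 0.07 between them. Nupr1 and Manf were the pair furthest apart in mouse 1, at -0.87, with -0.64 in mouse 2. The sums of the arms had a rho of -0.38 and 0.13. All of these values share the same libraries, clusters and cells and are descriptions.

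The first comparison asked how lumino-basal cluster 6 differs from mature luminal cluster 13, the comparison that the study's own analysis turns on. Cluster 6 had less Nupr1 and more Cebpb, Vldlr, Ddit3 and Slc3a2 than cluster 13, and more Dnajb9. The integrated stress arm summed to 1986 and 1826 CPM in cluster 6, against 3746 and 4070 CPM in cluster 13, and the endoplasmic reticulum arm to 3204 and 3119 CPM in cluster 6, against 2249 and 2323 CPM in cluster 13. Chac1, Trib3 and Slc7a11 did not pass the count filter, and of the other 33 members edgeR with mouse as a block called 10, 8 higher and 2 lower in cluster 6, beside 28.4% of all 9794 genes. By arm, 6 were higher and 2 lower of 15 integrated stress genes, and 2 were higher and none lower of 18 endoplasmic reticulum genes, of which 4 had an unadjusted p under 0.05. All genes were called higher in 16.3% and lower in 12.1%. The median log2 fold change was 0.45 for the integrated stress genes and 0.28 for the endoplasmic reticulum genes, beside 0.01 for all genes. For the integrated stress arm the median and the sum point opposite ways, since the log2 ratio of the sums was -1.04 with Nupr1 and 1.01 without it. Cells of both clusters came from the same 2 mice, and the block takes out the difference between the animals. The p-values weigh each change against its spread from mouse to mouse, with 1 residual degree of freedom. That spread was estimated partly from all genes tested. The clusters had been drawn from the same expression values, so a call says that a difference recurred in both mice and not that it was found independently of the clusters.

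Nupr1 had 427 and 328 CPM in cluster 6, against 2994 and 3306 CPM in cluster 13. It was lower in cluster 6 of both mice, with a log2 fold change of -3.16 (SE 0.20, edgeR adjusted p = 6.4e-15). Vldlr had 42.8 and 28.9 CPM in cluster 6, against 3.28 and 4.55 CPM in cluster 13, and its change was 2.97 (SE 0.45, edgeR adjusted p = 2.4e-06). Its level in cluster 13 lay near the floor, with a UMI in 5.48% and 4.17% of cells. The printed promoters of Nupr1 and Vldlr carry the composite element, and the genes went opposite ways. Cebpb had 758 and 836 CPM in cluster 6, against 248 and 263 CPM in cluster 13, a change of 1.54 (SE 0.22, edgeR adjusted p = 7.9e-07). These 3 genes passed the threshold in every alternative that kept all 4 sums, with adjusted p up to 0.073 when 1 sum was left out.

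Ddit3 had 73.3 and 25.8 CPM in cluster 6, against 20.5 and 12.4 CPM in cluster 13, with a change of 1.38 (SE 0.35, edgeR adjusted p = 0.0024). Its mouse 2 level in cluster 6 was close to the mouse 1 level in cluster 13, though within each mouse cluster 6 was higher. Slc3a2 had 258 and 209 CPM in cluster 6, against 91.0 and 144 CPM in cluster 13, with a change of 0.91 (SE 0.26, edgeR adjusted p = 0.0078). Asns went the other way, with 18.2 and 11.9 CPM in cluster 6, against 39.4 and 24.8 CPM in cluster 13, and a change of -1.18 (SE 0.36, edgeR adjusted p = 0.012). DESeq2, the fit without the block and the fit of all 36 sums each ended these 3 calls. Slc7a5 and the one-carbon enzyme Mthfd2 were also higher in cluster 6, at 22.0 and 14.5 CPM of Slc7a5 and 23.5 and 13.2 CPM of Mthfd2, against 4.92 and 4.96 CPM and 7.38 and 5.38 CPM in cluster 13. In cluster 13 Slc7a5 had a UMI in 6.85% and 6.25% of cells and Mthfd2 in 12.3% and 5.73%. Atf4 had 186 and 195 CPM in cluster 6 and 171 and 149 CPM in cluster 13 and did not pass the test (log2 fold change 0.16, SE 0.24, edgeR adjusted p = 0.69).

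Of the endoplasmic reticulum genes, Dnajb9 had 107 and 89.9 CPM in cluster 6, against 36.9 and 26.5 CPM in cluster 13, a change of 1.55 (SE 0.29, edgeR adjusted p = 6.3e-05). Hspa5 had 686 and 583 CPM in cluster 6, against 443 and 358 CPM in cluster 13, a change of 0.57 (SE 0.21, edgeR adjusted p = 0.043), and 6 of 8 alternatives ended that call. The other 16 had log2 fold changes between -0.46 for Sel1l and 0.64 for Herpud1 and did not pass the test.

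Beyond the members, 2 of 15 sensor and feedback genes were higher in cluster 6 and 2 were lower. Nfe2l2, the antioxidant factor NRF2, had a change of 1.28 and the kinase Eif2ak4 of 1.53, while Atf3 had 123 and 147 CPM in cluster 6, against 757 and 1019 CPM in cluster 13. Of 20 aminoacyl-tRNA synthetases none was higher and 2 were lower, Wars (-1.23) and Qars (-0.89), and of 23 genes of translocation, oxidation and degradation 2 were higher, Selenok (1.05) and Ssr1 (0.79), and none lower. Immediate early and heat shock genes summed to 3183 and 4032 CPM in cluster 6, against 6091 and 5318 CPM in cluster 13, and the 7 fibroblast genes to 1489 and 2966 CPM, against 27.1 and 232 CPM. The part of the immediate early genes in the member changes was not tested. With 26 and 42 cells of cluster 6 that held transcripts of other cell types left out, 9 of the 10 members were called and Hspa5 was not. Leaving out cluster 6 of mouse 2 ended every call, with 0 genes at edgeR adjusted p under 0.05 and 3053 at unadjusted p under 0.05, and the other 3 sums left out in turn gave 3, 4 and 5 members. Without the block 5 members were called, and with cells thinned to 2000 UMIs 4 were.

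**Figure D4:**
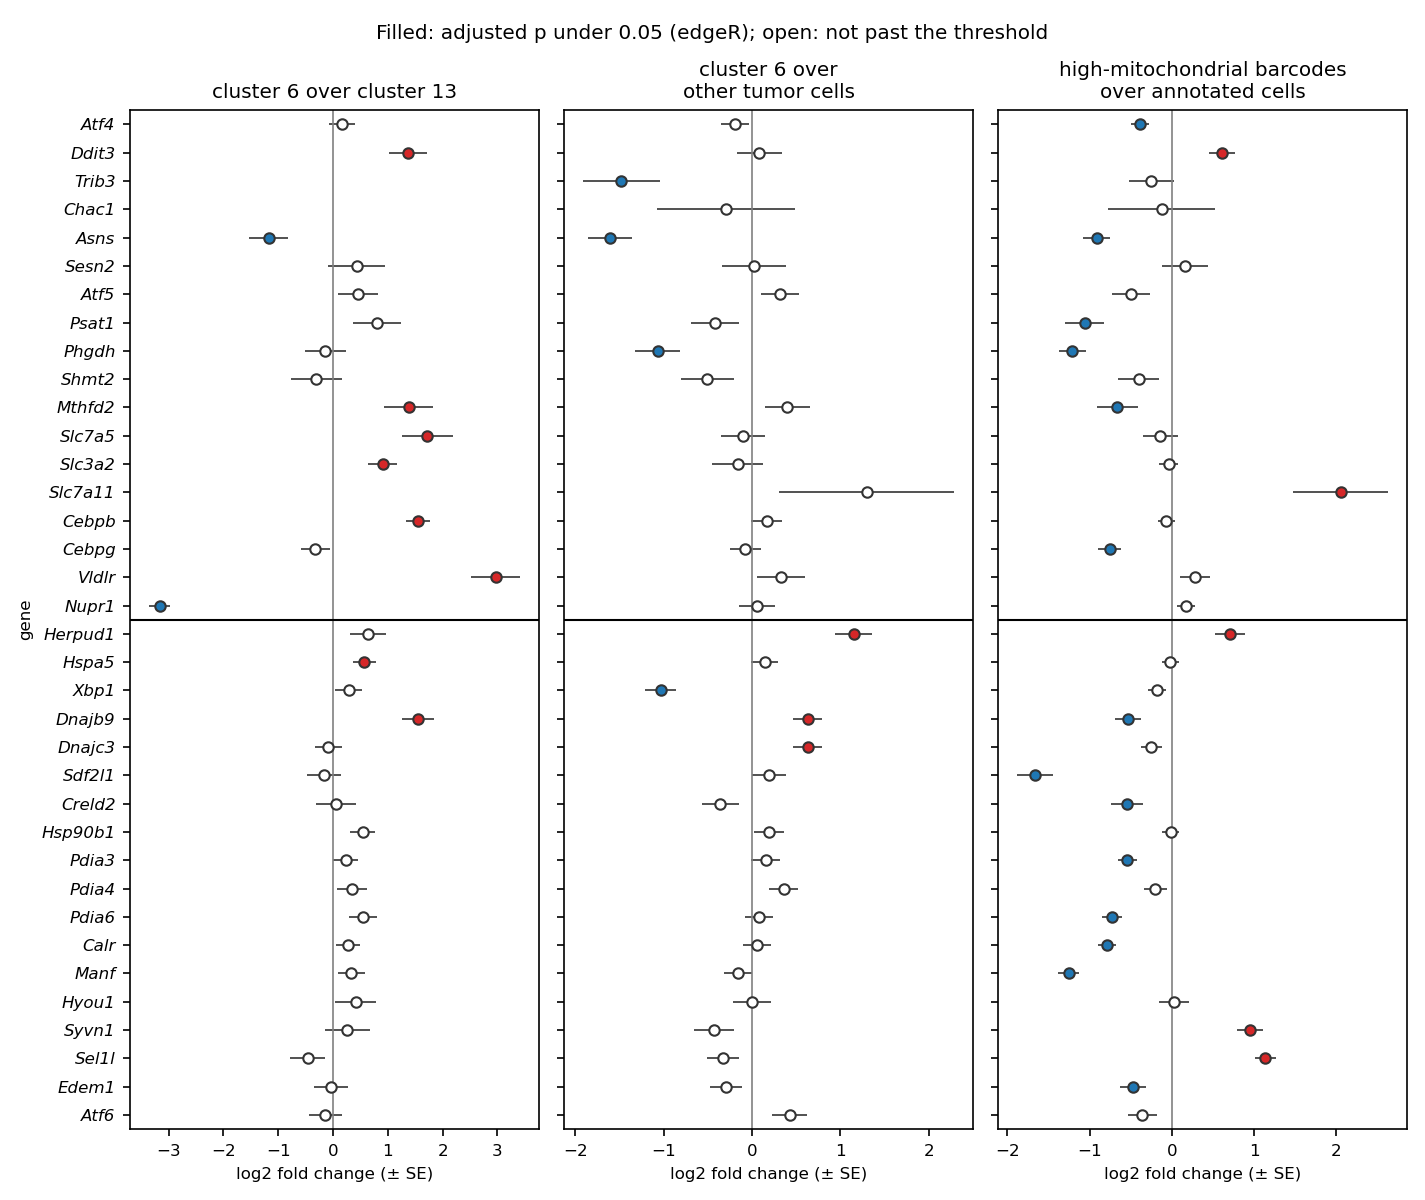
Log2 fold change from edgeR (horizontal axis, bars are SE) of each member (vertical axis, by arm) in 3 comparisons: cluster 6 against cluster 13, cluster 6 against the other tumor cells, and high-mitochondrial barcodes against annotated cells. Filled points passed an adjusted p of 0.05, which were 10, 7 and 19 members, and Nupr1 at -3.16 and Vldlr at 2.97 lie furthest out in the first panel.

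Set against all tumor cells outside clusters 6 and 13, cluster 6 had no integrated stress gene called higher by edgeR, and none with an unadjusted p under 0.05 beside the 3 called lower. Asns, Phgdh and Trib3 were lower, and of the endoplasmic reticulum arm Herpud1, Dnajb9 and Dnajc3 were higher and Xbp1 was lower. edgeR called 7 of 36 members, 3 higher and 4 lower, beside 18.8% of 14350 genes (12.1% higher, 6.63% lower), so the share of members called was near that of all genes. The median log2 fold change was -0.09 for the integrated stress genes and 0.11 for the endoplasmic reticulum genes, beside -0.06 for all genes. The arms summed to 1986 and 1826 CPM and to 3204 and 3119 CPM in cluster 6, against 1706 and 2085 CPM and 3244 and 2699 CPM in the other tumor cells, with the 2 mice in opposite directions for both arms. This comparison uses the same cluster 6 sums as the one before and is no second sample of them.

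Asns had 18.2 and 11.9 CPM in cluster 6, against 44.0 and 48.1 CPM in the other tumor cells, with a change of -1.60 (SE 0.25, edgeR adjusted p = 0.0027). Phgdh had 43.1 and 11.9 CPM in cluster 6, against 70.0 and 37.0 CPM, with a change of -1.07 (SE 0.25, edgeR adjusted p = 0.019). Xbp1, the factor that IRE1 activates by splicing, had 159 and 110 CPM in cluster 6, against 284 and 247 CPM, with a change of -1.03 (SE 0.18, edgeR adjusted p = 0.0042). For each of these 3 genes cluster 6 was the lower of the 2 groups in both mice. Trib3, a pseudokinase that feeds back on ATF4, was also called lower, on 16 and 3 UMIs in cluster 6.

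Herpud1, whose promoter holds both ERSE-II and the composite element, had 40.8 and 37.7 CPM in cluster 6, against 16.5 and 18.3 CPM in the other tumor cells (log2 fold change 1.15, SE 0.21, edgeR adjusted p = 0.006). Dnajb9 had 107 and 89.9 CPM in cluster 6, against 76.2 and 49.7 CPM (0.63, SE 0.17, edgeR adjusted p = 0.032), and the cochaperone and PKR and PERK inhibitor Dnajc3 (p58IPK) had 94.1 and 148 CPM, against 65.6 and 84.8 CPM (0.63, SE 0.16, edgeR adjusted p = 0.028). Higher Dnajb9 and Herpud1 thus stood beside lower Xbp1 in the sums of cluster 6, and whether single cells combined them was not tested. The calls of Herpud1 and Dnajb9 ended without the block and with thinned cells, and that of Dnajb9 with DESeq2 as well. Of the alternatives that kept all 4 sums, only the fit without the block ended the call of Xbp1. Of the sensor genes Nfe2l2 (0.79) was higher and Eif2ak3 (-0.92) and Atf3 (-0.86) were lower, 3 of 20 synthetases were lower and none higher, and 4 of 25 genes of the translocation list were lower and none higher, led by Serp1 (-1.31), Edem2 (-0.98) and Sec61b (-0.69). Without the block 1 member was called, Asns, and calls of all genes fell to 967 from 2693. The cause of the lost calls was not tested. With the thinned cells 3 members were called. The fibroblast sums of 1489 and 2966 CPM in cluster 6, against 2.83 and 4.06 CPM, apply here too, and without the cells with such transcripts Dnajc3 was no longer called.

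The third comparison took barcodes that carry no annotation and whose mitochondrial share exceeded that of every annotated cell, which is how such barcodes were chosen and is no finding. They numbered 2311 and 1948, and 625 and 429 of them held at least 2000 UMIs. Their summed levels weigh such deeper barcodes more. All these barcodes together had a median of 1276 and 1074 UMIs and a median mitochondrial share of 86.5% and 82.7%. Since mitochondrial transcripts took 59.0% and 53.2% of their summed UMIs, against 6.55% and 6.01% in annotated cells, levels are given here over the UMIs of nuclear genes alone, as nuclear CPM. On that scale the median of all genes lay 0.36 log2 units above the annotated cells, while the edgeR fold changes, with TMM scaling, have a median of -0.03. A gene with an equal nuclear level therefore has a fitted change below 0. The integrated stress arm summed to 2291 and 2725 nuclear CPM in high-mitochondrial barcodes, against 1888 and 2300 in annotated cells, and the endoplasmic reticulum arm to 3299 and 3070, against 3446 and 2867.

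Sel1l, Syvn1 and Herpud1, which act in degradation from the endoplasmic reticulum, and Ddit3 were higher in high-mitochondrial barcodes. The folding factors Sdf2l1, Manf, Calr, Pdia6 and Pdia3 and the amino acid synthesis genes Phgdh, Psat1 and Asns were lower. The degradation factor Edem1 was lower by the fit, with a nuclear level that differed little in mouse 1. edgeR called 19 of 36 members, 5 higher and 14 lower, beside 42.1% of all 14220 genes (18.1% higher, 24.0% lower). By arm 2 were higher and 6 lower of 18 integrated stress genes, with a median of -0.20, and 3 were higher and 8 lower of 18 endoplasmic reticulum genes, with a median of -0.30. Of the 19, 17 had the same sign in nuclear CPM in both mice, and Dnajb9 and Creld2 did not. Among the 17, Atf4 had nuclear log2 ratios of -0.04 and -0.04 and Edem1 of -0.03 and -0.22, so their signs rest on small differences.

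Sel1l had 99.8 and 150 nuclear CPM in high-mitochondrial barcodes, against 37.1 and 51.8 in annotated cells (log2 fold change 1.14, SE 0.13, edgeR adjusted p = 1.8e-06). Its partner Syvn1 had 52.4 and 63.1, against 20.6 and 26.9 (0.95, SE 0.16, edgeR adjusted p = 1.3e-04), and Herpud1, of the same degradation complex, had 33.8 and 49.2, against 19.3 and 20.3 (0.70, SE 0.18, edgeR adjusted p = 0.0051). Ddit3 had 85.7 and 88.3 nuclear CPM in high-mitochondrial barcodes, against 55.1 and 36.3 in annotated cells (0.60, SE 0.16, edgeR adjusted p = 0.005). Slc7a11 was also called higher, on 8 UMIs in each mouse. Sel1l, Syvn1 and Herpud1 were higher in both mice. In the shallow cluster 1, Syvn1 had rank 1 of the 18 clusters in both mice and Sel1l rank 3. Ddit3 had rank 3 and rank 2 there, and Herpud1 rank 8 and rank 3. In cluster 11, Sel1l had rank 2 and rank 1 and Herpud1 rank 2 in both mice. Cluster 11 had the highest median mitochondrial share of the 18, at 11.4% and 11.6%.

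Sdf2l1, a cochaperone of BiP, had 12.97 and 13.95 nuclear CPM in high-mitochondrial barcodes, against 37.3 and 29.5 in annotated cells (-1.67, SE 0.22, edgeR adjusted p = 9.7e-06). Manf, a secreted protein that binds BiP, had 175 and 130, against 370 and 214 (-1.26, SE 0.13, edgeR adjusted p = 6e-07), and Calr had 403 and 355, against 561 and 469 (-0.79, SE 0.11, edgeR adjusted p = 1.9e-05). Hspa5 and Hsp90b1 did not follow them, with fitted changes of -0.02 each and nuclear levels of 850 and 655 CPM of Hspa5 in high-mitochondrial barcodes, against 692 and 510 in annotated cells. The isomerases Pdia6 (-0.73) and Pdia3 (-0.55) and the mannosidase-like Edem1 (-0.48) were lower by the fit, as were Dnajb9 and Creld2. Edem1 had 40.6 and 44.5 nuclear CPM in high-mitochondrial barcodes, against 41.6 and 52.2 in annotated cells. Its fitted change is relative to the upward shift of the median gene.

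In the integrated stress arm, Phgdh had 37.8 and 22.6 nuclear CPM in high-mitochondrial barcodes, against 72.4 and 37.9 in annotated cells (-1.21, SE 0.17, edgeR adjusted p = 1.6e-05). Asns had 32.1 and 31.2, against 45.4 and 49.0 (-0.92, SE 0.17, edgeR adjusted p = 2.4e-04). Psat1 (-1.06), the ATF4 partner Cebpg (-0.76) and Mthfd2 (-0.66) were lower as well. Atf4 had 237 and 198 nuclear CPM in high-mitochondrial barcodes and 244 and 204 in annotated cells, levels that differed little, and its fitted change of -0.39 (SE 0.11, edgeR adjusted p = 0.011) is relative to the upward shift of the median gene. Nupr1, Cebpb and Slc3a2 had fitted changes of 0.18, -0.07 and -0.04 and did not pass the test.

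**Figure D5:**
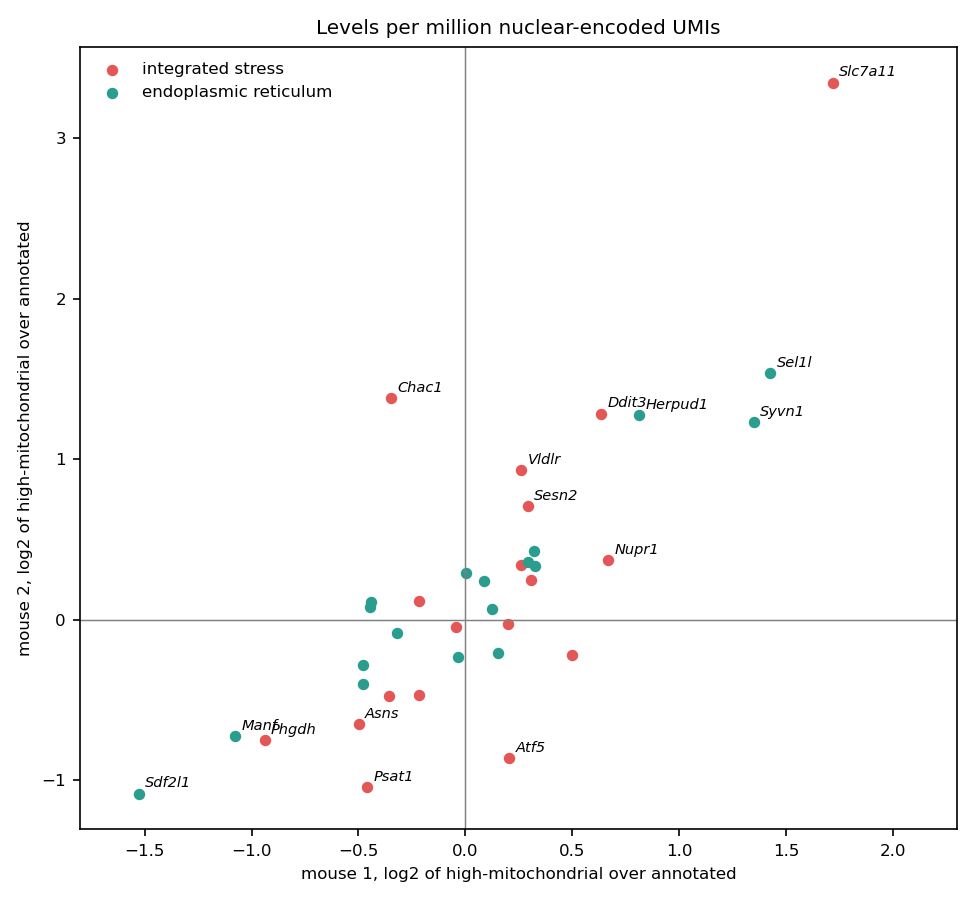
Log2 ratio of high-mitochondrial barcodes to annotated cells in nuclear CPM in mouse 1 (x axis) and mouse 2 (y axis), with a point for each member colored by arm. Sel1l, Syvn1 and Herpud1 lie to the upper right and Sdf2l1, Manf and Phgdh to the lower left in both mice, and the median of all genes lies at 0.36.

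By the same fit, other parts of the machinery had more genes lower than higher, apart from the sensors. Of 25 genes of translocation, oxidation and degradation 15 were lower and 1 was higher, led by the translocon subunit Sec61b (-1.46), the translocon-associated Ssr2 (-1.20) and the degradation factor Derl1 (-1.13), with Txndc11 (0.56) higher. Of 20 synthetases 9 were lower and 1 was higher, and of 15 sensor and feedback genes 5 were higher, with Eif2ak4 at 1.21, and 2 were lower, with Eif2s1, which encodes eIF2alpha, at -0.99. In nuclear CPM the lists did not all go that way: the translocation list summed to 3818 and 3398 in high-mitochondrial barcodes, against 5211 and 4110 in annotated cells, the synthetases to 1275 and 1263, against 1202 and 1209, and the sensor list to 1213 and 1268, against 788 and 979. The nuclear RNA Malat1 had 61199 and 78579 nuclear CPM in high-mitochondrial barcodes, against 15032 and 25191 in annotated cells. The part of this and of the low depth in the member changes was not tested. Without the block 4 members were called, with the thinned barcodes 9, and 0 to 5 when 1 sum was left out: 0 without either high-mitochondrial sum, with 17 and 21 of all genes called by edgeR. Sel1l, Syvn1, Sdf2l1 and Asns passed the threshold in every alternative that kept all 4 sums.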

How the data were processed

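Single cells of 2 tumors were counted, and the replicate is the mouse. The deposited matrices hold whole-number UMI counts per gene and barcode, which the authors made with Cell Ranger 6.0.1 on mm10; the deposited cell table, from Seurat (4.0.3 in the submitters' processing notes, a version the study's methods give for R), gave each cell's cluster, and its mitochondrial share is deposited as a fraction of the authors' counts. Per the study's methods, doublets had been removed with scDblFinder before clustering, so the annotated cells are already filtered; no further doublet caller was run, and barcodes without an entry, which can include removed doublets, were kept apart.

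UMIs were summed per mouse and cluster and given as CPM. Sums were compared with edgeR 4.0.16 (limma 3.58.1, R 4.3.3): filterByExpr, TMM, mouse as a block, quasi-likelihood test, Benjamini-Hochberg adjustment over all genes tested and a threshold of 0.05. SE is the absolute log2 fold change divided by the root of F. Both groups of each comparison came from the same animals. Deviations of same-mouse sums from their group means had a Pearson r of 0.14, 0.33 and 0.51 in the 3 comparisons, across genes. Alternatives were DESeq2 1.42.0, its size factors in edgeR, no filter, no block, each sum left out, mitochondrial genes left out, cells with transcripts of other cell types left out (at least 3 genes of 1 list), cells thinned to 2000 UMIs, and 1 fit of all 36 cluster sums. The fits were tested on simulated counts first. Python 3.11.15 with numpy 2.4.6, pandas 2.3.3 and scipy 1.17.1 gave the sums and the exact 95% Poisson intervals, which cover counting error only. UMIs are counted molecules, and totals of 58629906 and 56972644 UMIs over the annotated cells of mouse 1 and mouse 2 set that error. Values in both mice are printed for up to 6 members of each arm that passed the threshold, had equal signs in the mice and reached 20 CPM in 1 group, for members with the opposite sign, for the 4 highest of each arm and for those whose top cluster is at least 4 times the median cluster. Ddit3 had 2 gene IDs, of which the second had 0 UMIs and was left out. The members and lists were chosen with earlier results of these data known.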

Additional observations from a re-analysis of the deposited data

Results flagged for a closer look

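Barcodes that had no annotation and no high mitochondrial share, 35 in mouse 1 and 260 in mouse 2, entered no comparison, and both arms were above the annotated cells there. The integrated stress arm summed to 2861.9 CPM in mouse 1 and 3165.3 CPM in mouse 2, against 1765 and 2162 CPM in annotated cells. The endoplasmic reticulum arm summed to 4031.22 CPM in mouse 1 and 3062.45 CPM in mouse 2, against 3221 and 2694 CPM. In the same barcodes macrophage genes summed to 8895 and 5462 CPM and globin genes to 10791 and 10347 CPM, and the 8 pan-luminal genes to 1116 and 5792 CPM. The part of these other cell types in the member levels was not tested.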

How the results depend on the processing

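Of the 10 members called between cluster 6 and cluster 13, DESeq2 called 4, the fit with no replicate block 5, cells thinned to 2000 UMIs 4, the fit of all 36 sums 5, and leaving out 1 sum 0 to 5. Of the 7 called between cluster 6 and the other tumor cells, the fit with no replicate block called 1, thinned cells 3 and leaving out 1 sum 0 to 2. Of the 19 called in high-mitochondrial barcodes, the fit with no replicate block called 4, thinned barcodes 9 and leaving out 1 sum 0 to 5. Leave-one-out fits had no block and fewer sums, and thinned fits fewer cells; the cause of the other losses was not tested. Counts of all genes fell too, with 1117 by DESeq2, 979 thinned and 714, 0, 1281 and 1387 with 1 sum left out, beside 2782, in the first comparison. In the second they were 967 without the block, 1210 thinned and 525 to 973 with 1 sum left out, beside 2693, and in the third 1830, 3561 and 17 to 1858, beside 5983, with 3982 by DESeq2. Without the filter the second gave 3645 genes, 1967 higher. No call of a single member changed sign under any of these alternatives: DESeq2 size factors and leaving out mitochondrial genes kept 36 of 36 calls, leaving out cells with transcripts of other cell types 33, and the fit with no replicate block 10.

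For the summed arms the log2 ratio of cluster 6 to cluster 13 was -1.04 for the integrated stress arm, -1.73 without Cebpb, and by choices made after seeing the data 1.01 without Nupr1 and 0.54 without both. The endoplasmic reticulum ratio was 0.47, and 0.38 with mitochondrial and ribosomal protein genes out of the total. In high-mitochondrial barcodes against annotated cells the integrated stress ratio over all UMIs was -0.83, which became 0.26 with mitochondrial genes out of the total, 0.14 with ribosomal protein genes out as well, -1.48 as a mean of single cells, -0.67 with thinned cells and -1.01 without Nupr1 and Cebpb. The endoplasmic reticulum ratio was -1.08, and 0.018, -0.11, -1.81 and -0.77 under the first 4 of these. Depth limits Chac1, Slc7a11 and Trib3, the last with 511 and 579 UMIs in mouse 1 and mouse 2.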
